A study of Mus musculus with 9 samples.

Results

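The TNF superfamily and the TNF receptor superfamily were examined in mouse spleen T cells cultured under helper T cell conditions. The members were all rows of the deposited expression table whose symbol begins with Tnfsf or Tnfrsf, plus Tnf, Lta, Ltb, Ltbr, Fas, Fasl, Cd27, Cd40, Cd40lg and Cd70. This gave 42 of the 22017 genes in the table: 17 ligands, 24 receptors and the read-through locus Tnfsfm13. Of these, 32 reached at least 1 FPKM (fragments scaled by transcript length and library size) in at least 3 of the 9 libraries and were tested, among 10538 genes that did. The study asked how Th1 cells made from Th17 cells differ from directly differentiated Th1 cells and from Th17 cells.

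All cells were wild-type naive T cells from spleens of C57BL/6 mice, activated with anti-CD3 and anti-CD28 for 3 days, kept in cytokines alone for 2 days and given IL-2 (100 U/mL) from day 5. On day 7 every culture was restimulated with low-dose anti-CD3, anti-CD28 and IL-2 (100 U/mL) for 3 days, and RNA was taken on day 10. Th1 cells (labelled Th1-1) were held in IL-12 (10 ng/mL) with anti-IL-4 in both phases. Th17 cells (labelled Th17-17) were held in TGF-b (1 ng/mL), IL-6 (20 ng/mL) and IL-1b (10 ng/mL) with antibodies to IFN-g, IL-12 and IL-4 in both phases. Th17-derived Th1 cells (labelled Th17-1) had the Th17 medium first and the Th1 medium from day 7. No library was taken before day 10, so each rise or fall reported is a difference between groups and not a change over time. Each group had 3 libraries. The labels do not say whether these came from separate mice or cultures, so p-values measure the spread between these libraries, which may be technical.

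TNF superfamily ligands are mostly trimers on the cell surface, some of which are shed, and they act by clustering receptors. The receptors fall into those with a cytoplasmic death domain, which can start caspase activation, those that recruit TRAF adaptors and lead to NF-kappaB, and decoys that bind ligand without signalling. On activated T cells several TRAF-binding receptors, among them OX40, GITR, 4-1BB, CD27 and CD30, act as costimulators after antigen recognition.

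The 9 libraries summed to between 382581 and 405985 FPKM, with 13374 to 14063 genes above 0, and libraries of a group correlated with r between 0.9639 and 0.9933 across genes. Sequencing depth is not known from these values. All 9 T cell markers were expressed in every library. Il17a, which encodes the Th17 cytokine IL-17A, was at 2.99 to 6.16 FPKM in Th17 cells and listed at 0 in every Th1 library. Ifng was 14.2 to 40.7 FPKM in Th17 cells, 717 to 990 FPKM in Th17-derived Th1 cells and 1005 to 2013 FPKM in Th1 cells. Some other subset genes did not separate the groups as labelled: Cxcr3 was 10.2 to 24.7 FPKM in Th17-derived Th1 and 11.7 to 24.8 FPKM in Th17 cells, against 35.8 to 68.0 FPKM in Th1 cells, and Il12rb2 was 53.4 to 82.0, 60.8 to 96.7 and 58.1 to 147 FPKM in the same order. Il23r was 0.140 to 0.319 FPKM in Th17 cells and 0.220 to 1.35 FPKM in Th1 cells. Replicate 3 of each group stood apart in CD8 genes: Cd8a was 117 FPKM in that Th1 library, 104 FPKM in the Th17-derived Th1 library and 141 FPKM in the Th17 library, against 15.3 to 54.9 FPKM in the other 6 libraries. Replicate 2 of Th1 cells also stood apart, with 707 FPKM of Lta against 97.0 and 100.4 FPKM in the other Th1 libraries. In bulk RNA, fewer cells of a type and less RNA per cell cannot be told apart.

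The superfamily as a whole took a larger share of the RNA in both kinds of Th1 cell than in Th17 cells. Its summed level was 941 to 1010 FPKM in the Th17 libraries, 1385 to 1500 FPKM in the Th17-derived Th1 libraries and 1557 to 1842 FPKM in the Th1 libraries, and the groups did not overlap. Ltb had the highest mean level of all members in each group. Without Ltb and Lta the sums were 474 to 523 FPKM, 738 to 805 FPKM and 794 to 846 FPKM, so the Th17 libraries remained lowest while the ranges of the other groups overlapped.

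Most superfamily members called between Th17-derived Th1 and Th17 cells were higher in the Th17-derived Th1 cells. In limma (Benjamini-Hochberg adjusted p under 0.05 over all tested genes), 13 of the 32 tested members were higher, where 6.43% of all tested genes were called higher, and 2 were lower, where 9.49% were called lower. Both lower members, Tnfrsf13c and Tnfrsf12a, passed the filter only through the Th17 libraries, so nothing is read from the count of 2. The median difference of the tested members, on the scale of log2(FPKM + 1) used for all differences and folds here, was 0.32 against -0.12 over all tested genes. Against Th1 cells the Th17-derived Th1 cells had 3 members higher and 5 lower, where 5.67% and 4.81% of all tested genes were called, and the median member difference was 0.10. Th1 cells against Th17 cells gave 17 members higher and 6 lower, where 14.0% and 28.9% of all tested genes were called, and a median member difference of 0.68. The 6 include Tnfrsf13c, Tnfrsf12a and Cd40, which passed the filter only or mainly through the Th17 libraries, so that count is no support for a direction. The 3 comparisons share groups and are not independent of each other.

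Under median-ratio scaling, which moved the median of all tested genes in Th17-derived Th1 against Th17 cells from -0.12 to -0.01 and in Th1 against Th17 cells from -0.17 to -0.01, the share of all calls that were higher went from 40.4% to 63.1% and from 32.7% to 53.9%. Quantile normalization gave 54.5% and 45.6%. With median-ratio scaling 14 and 17 members were higher and 1 and 5 were lower. Under equal FPKM sums, 61.3% of all calls in Th17-derived Th1 against Th1 cells were higher, against 54.1%, and under median-ratio scaling 45.5%.

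The commonest pattern was a low level in Th17 cells and a high level in both kinds of Th1 cell. It was called for 12 of the 32 tested members (37.5%), where 5.11% of all tested genes had it: the receptors Tnfrsf8, Tnfrsf4, Tnfrsf18, Tnfrsf9, Tnfrsf1b, Fas, Tnfrsf10b, Tnfrsf1a and Tnfrsf23, and the ligands Tnfsf4, Tnfsf14 and Tnfsf9. The ligands Tnfsf4, Fasl, Tnfsf10 and Tnf, 4 of the 32 tested members (12.5%), were called higher in Th1 cells than in both other groups, where 3.76% of all tested genes were. Tnfrsf8 and its ligand Tnfsf8 were the 2 members called higher in Th17-derived Th1 cells than in both other groups, where 0.901% of all tested genes were. Their calls over Th1 cells were lost in 12 and 9 of the 20 alternatives. Tnfrsf13c and Tnfrsf12a were the 2 members called higher in Th17 cells than in both other groups, where 8.11% of all tested genes were. Both passed the filter only through the Th17 libraries, so nothing is read from that count. In all, 26 of the 32 were called in at least 1 comparison, where 46.4% of all tested genes were. The 26 include Tnfrsf13c, Tnfrsf12a and Cd40, which passed the filter only or mainly through the Th17 libraries, so nothing is read from that count.

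**Figure D1:**
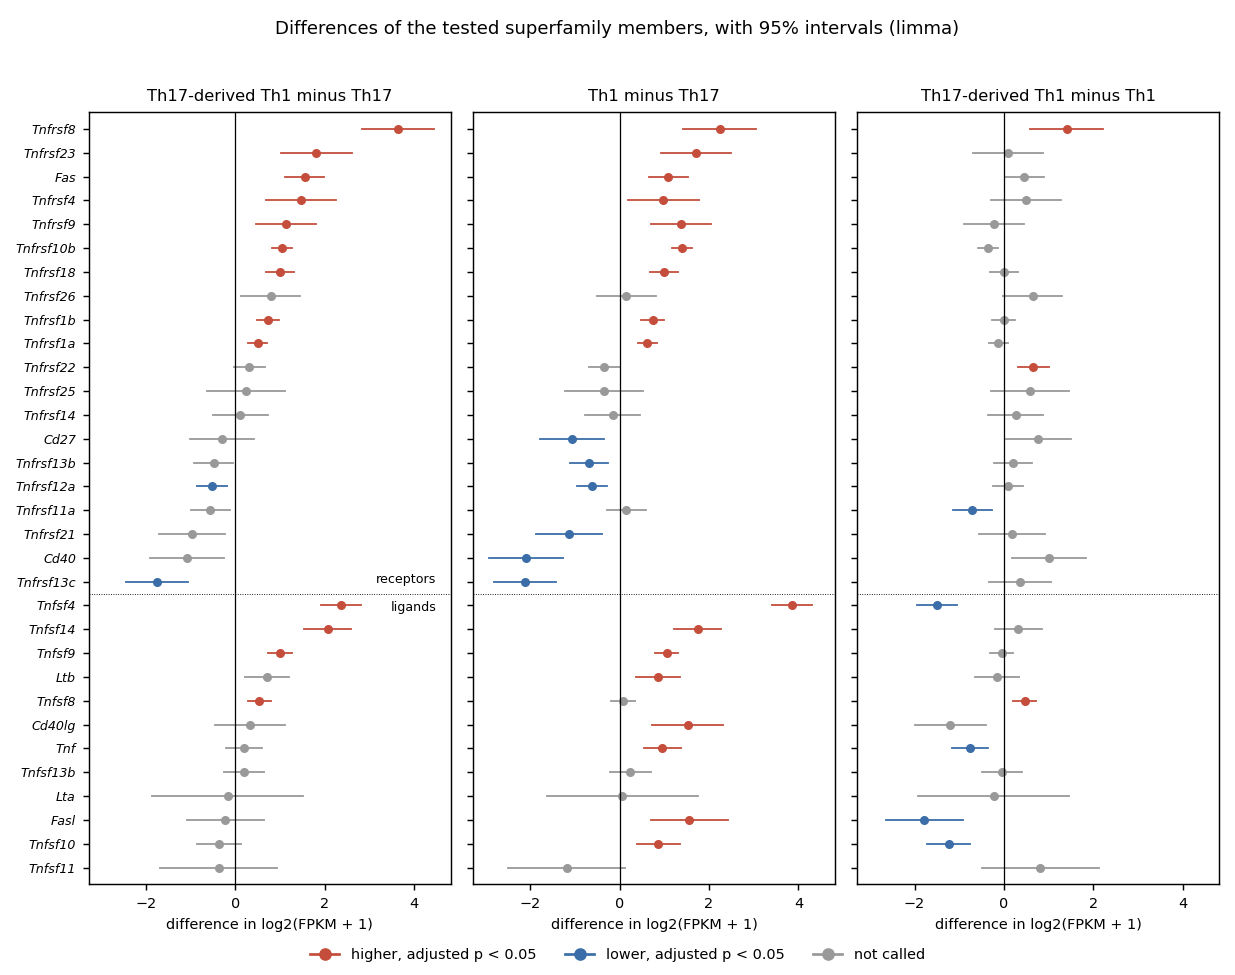
Differences in log2(FPKM + 1) with 95% intervals from limma for the 32 tested members, receptors above and ligands below the dotted line, for the 3 comparisons; colour marks the adjusted p. Most coloured points lie to the right in the first 2 panels, with 13 and 17 members higher, and the third panel has 8 coloured points.

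Promoter sequences are given for Tnfrsf8, Tnfsf14 and Fas, as members with large rises in Th17-derived Th1 cells whose upstream bases hold the AP-1 letters, and for Ltb, the member with the highest mean level in each group. A search was made of the 250 bases upstream of each start in 32851 RefSeq promoters (GRCm38.p6), on both strands, and 32 of the 42 members had a promoter there. The letters TGANTCA (AP-1) were found in 6 of the 36 promoters of these 32 genes (Fas, Tnfrsf8, Tnfrsf9, Tnfsf13, Tnfsf13b and Tnfsf14) and in 6.75% of all promoters. The 10-base NF-kappaB consensus was found in 1, Ltb, as GGAAAGTCCC, and in 1.21% of all promoters. TTCNNNGAA (STAT) was found in 8 of the 36 and 7.02% of all promoters, AGGTCA (ROR) in 2 and 14% and AGGTGTGA (T-box) in none and 1.12%. Tnfrsf23 and Tnfrsf4, 3.51-fold and 2.77-fold higher in Th17-derived Th1 than in Th17 cells, had promoters without the AP-1 letters. Of the 6 genes with these letters, Tnfsf13 was not tested and Tnfsf13b was not called. All matches are descriptions of letters only.

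In these sequences, written 5′ to 3′ on the strand of the gene, capitals mark the AP-1 letters in the first 3 and the NF-kappaB letters in the last. Tnfrsf8 is chr4:145315165-145315414 on the minus strand, with the match 132 bases upstream of the start. Tnfsf14 is chr17:57194182-57194431 on the minus strand, with the match 160 bases upstream. Fas is chr19:34290409-34290658 on the plus strand, with the match 211 bases upstream. Ltb is chr17:35194257-35194438 on the plus strand, shown up to the first exon of the GENCODE annotation. Its match is 87 bases upstream of the RefSeq start, which lies past the end of the printed bases.
Tnfrsf8: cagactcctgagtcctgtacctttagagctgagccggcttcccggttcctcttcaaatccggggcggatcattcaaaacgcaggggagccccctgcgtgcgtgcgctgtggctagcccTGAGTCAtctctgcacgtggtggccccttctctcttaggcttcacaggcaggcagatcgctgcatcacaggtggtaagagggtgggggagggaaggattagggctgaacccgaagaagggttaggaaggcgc
Tnfsf14: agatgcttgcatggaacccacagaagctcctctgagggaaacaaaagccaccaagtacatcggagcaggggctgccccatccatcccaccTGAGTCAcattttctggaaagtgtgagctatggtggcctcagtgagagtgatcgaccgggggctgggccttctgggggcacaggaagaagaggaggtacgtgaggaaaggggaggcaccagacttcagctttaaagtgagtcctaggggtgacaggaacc
Fas: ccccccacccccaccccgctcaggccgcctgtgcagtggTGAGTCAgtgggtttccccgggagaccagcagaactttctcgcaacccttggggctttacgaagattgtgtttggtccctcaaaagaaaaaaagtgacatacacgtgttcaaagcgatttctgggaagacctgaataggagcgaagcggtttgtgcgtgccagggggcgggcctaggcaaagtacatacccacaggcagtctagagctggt
Ltb: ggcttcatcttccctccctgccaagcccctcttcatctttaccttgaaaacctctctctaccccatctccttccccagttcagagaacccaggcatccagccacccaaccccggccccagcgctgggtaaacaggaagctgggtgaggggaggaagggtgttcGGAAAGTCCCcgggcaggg

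Among the 8 receptors that costimulate T cells, 5 were higher and none lower in Th17-derived Th1 cells than in Th17 cells, where 6.43% and 9.49% of all tested genes were. In Th1 cells against Th17 cells 5 were higher and 1, Cd27, was lower, where 14.0% and 28.9% of all tested genes were. Between the 2 kinds of Th1 cell, 1 of the 8 was higher in the Th17-derived cells, where 5.67% of all tested genes were.

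CD30, encoded by Tnfrsf8 on chromosome 4, is a TRAF-binding receptor of activated lymphocytes. Of the tested members, its gene showed the largest difference between Th17-derived Th1 and Th17 cells. Tnfrsf8 was 1.77, 1.48 and 3.57 FPKM in the Th17 libraries, 44.7, 38.3 and 32.9 FPKM in the Th17-derived Th1 libraries and 8.98, 26.0 and 11.1 FPKM in the Th1 libraries. The groups did not overlap, and every Th17-derived Th1 library was above every other library. The level was 12.5-fold higher in Th17-derived Th1 than in Th17 cells (log2 difference 3.64, SE 0.36, adjusted p = 0.000375). It was 4.70-fold higher in Th1 than in Th17 cells (adjusted p = 0.00162). The difference between Th17-derived Th1 and Th1 cells was smaller, 2.65-fold with an adjusted p of 0.0393, and that call was lost when any 1 of 7 libraries was left out. It had an adjusted p of 0.113 and 0.139 without Th1 replicates 1 and 3, of 0.138, 0.129 and 0.0511 without Th17-derived Th1 replicates 1, 2 and 3, and of 0.0647 and 0.0554 without Th17 replicates 1 and 2. Without replicate 3 of every group the adjusted p was 0.134, and it was 0.0732 with no filter, 0.0702 with only the 2 groups compared and 0.0544 with a pseudocount of 0.1. The call was also lost with the replicate number as a block.

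Tnfsf8 encodes CD30 ligand, and it was highest in the same group as its receptor but over a narrower range. Its level was 38.8, 37.3 and 46.7 FPKM in Th17 cells, 62.0, 60.5 and 56.1 FPKM in Th17-derived Th1 cells and 47.8, 43.8 and 37.8 FPKM in Th1 cells. The Th17-derived Th1 libraries were the highest, and the other groups overlapped. The log2 difference was 0.54 over Th17 cells (adjusted p = 0.0156) and 0.46 over Th1 cells (adjusted p = 0.0373). The call over Th17 cells was lost when Th17-derived Th1 replicate 1 or 2 was omitted (adjusted p = 0.065 and 0.0559) and without Th17 replicate 1 or 2 (0.0737 and 0.0775). The call over Th1 cells ended without Th1 replicate 3 (0.138), Th17-derived Th1 replicate 1 or 2 (0.135 and 0.138) and Th17 replicate 1 or 2 (0.0631 and 0.0533), without replicate 3 of every group (0.0712), with no filter (0.0506) and with only the 2 groups compared (0.0605). That call was also lost with the replicate number as a block.

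OX40 and GITR, costimulators of activated and regulatory T cells, are encoded by Tnfrsf4 and Tnfrsf18, which are neighbours on chromosome 4 with 9.551 kb between them. Tnfrsf18 was 46.8, 51.5 and 50.6 FPKM in Th17 cells, 120.3, 101 and 80.4 FPKM in Th17-derived Th1 cells and 105, 104 and 90.6 FPKM in Th1 cells. Every Th1 and Th17-derived Th1 library was above every Th17 library, and these 2 groups overlapped. The rise over Th17 cells was 1.98-fold (adjusted p = 0.00217) in Th17-derived Th1 cells and 1.99-fold (adjusted p = 0.000863) in Th1 cells, and the difference between the 2 kinds of Th1 cell was -0.01 with a 95% interval from -0.32 to 0.31, which turned to 0.03 under equal FPKM sums.

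Tnfrsf4 was 22.8, 21.2 and 13.2 FPKM in Th17 cells, 81.8, 54.8 and 33.4 FPKM in Th17-derived Th1 cells and 51.0, 39.8 and 26.1 FPKM in Th1 cells. The Th17 libraries were again the lowest, and replicate 3 was the lowest library of each group. The rise over Th17 cells was 2.77-fold in Th17-derived Th1 cells (adjusted p = 0.0227) and 1.97-fold in Th1 cells (adjusted p = 0.0475). Omitting Th17-derived Th1 replicate 1 or 2 ended the first call (adjusted p = 0.076 and 0.0664), as did fits without Th17 replicate 1, 2 or 3 (0.0545, 0.0643 and 0.0607). The second call was lost without Th1 replicate 1 or 2 (0.15 and 0.0758), Th17-derived Th1 replicate 2 (0.067) and Th17 replicate 1, 2 or 3 (0.069, 0.0816 and 0.148), and under equal FPKM sums (0.0563), no filter (0.0865) and a pseudocount of 5 (0.0532). Th17-derived Th1 and Th1 cells did not differ past the threshold, with a 95% interval from -0.30 to 1.28. With the replicate number as a block this difference passed.

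4-1BB, encoded by Tnfrsf9, is a TRAF-binding costimulator induced by activation, best known on CD8 T cells. Tnfrsf9 was 26.8, 30.3 and 65.9 FPKM in Th17 cells, 73.7, 76.3 and 107 FPKM in Th17-derived Th1 cells and 89.4, 99.2 and 110.1 FPKM in Th1 cells. The Th17 libraries were lowest, and in each group replicate 3, the library with the most Cd8a, had the highest value. The part of CD8 T cells in these levels was not tested. The rise was 2.20-fold in Th17-derived Th1 cells (adjusted p = 0.0331) and 2.58-fold in Th1 cells (adjusted p = 0.00653). In Th17-derived Th1 cells the call ended on leaving out any library of that group (for replicates 1, 2 and 3 the adjusted p was 0.0701, 0.0691 and 0.0984) or Th17 replicate 1 or 2 (0.125 and 0.129) and with no filter (0.062), and it held without replicate 3 of every group.

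TNFR2, encoded by Tnfrsf1b 20.266 kb from Tnfrsf8, binds TNF and lymphotoxin alpha and has no death domain. Tnfrsf1b was 45.2, 48.0 and 49.5 FPKM in Th17 cells, 82.4, 77.5 and 78.0 FPKM in Th17-derived Th1 cells and 84.2, 67.1 and 90.0 FPKM in Th1 cells. Its Th17 libraries did not overlap the others. The differences were 0.73 (adjusted p = 0.00308) and 0.74 (adjusted p = 0.0012) on the log2 scale.

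Cd27, whose product is a costimulator present on naive T cells and bound by CD70, ran the other way. It was 41.7, 45.1 and 32.7 FPKM in Th17 cells, 22.8, 31.6 and 44.4 FPKM in Th17-derived Th1 cells and 23.8, 10.6 and 23.7 FPKM in Th1 cells. The Th17 libraries were above all Th1 libraries, and the Th17-derived Th1 libraries overlapped both groups. Th1 cells were 1.07 lower than Th17 cells on the log2 scale (log2 difference -1.07, adjusted p = 0.0248), a call lost without Th17 replicate 1 or 2 (adjusted p = 0.0761 and 0.0827) and under median-ratio scaling (0.0639). Cd70, the gene of its ligand, stayed at or under 0.971 FPKM in all libraries and was not tested.

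The last 2 costimulators did not pass the threshold in any comparison. Tnfrsf14, which encodes HVEM, ranged from 18.3 to 45.5 FPKM over the 9 libraries. Tnfrsf25, which encodes the death domain receptor DR3, ranged from 10.6 to 34.8 FPKM. For both genes all 3 groups overlapped, and the lowest library was Th1 replicate 2.

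**Figure D2:**
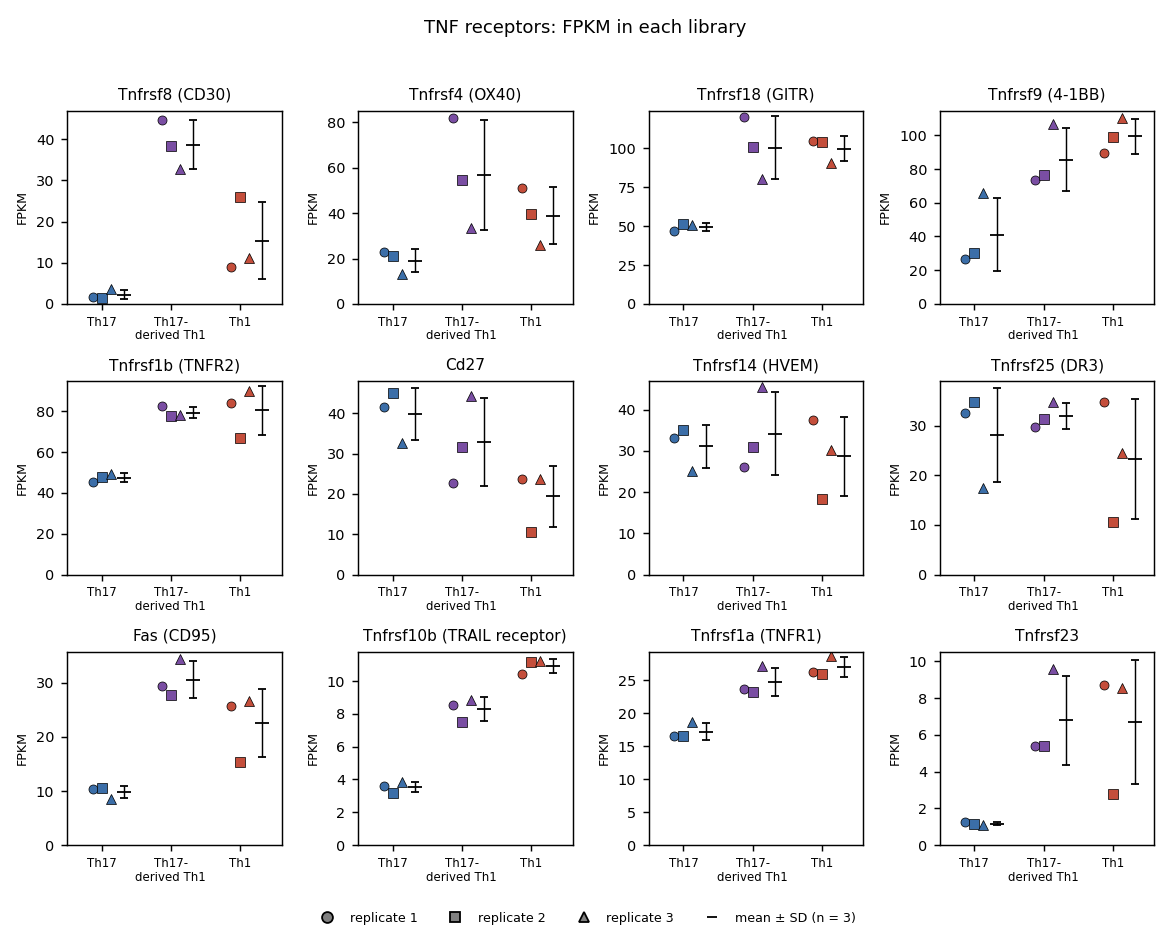
FPKM of 12 receptor genes in each of the 9 libraries, by group, with marker shapes for replicates 1 to 3 and bars for the mean and SD (n = 3). Tnfrsf8 sits at 1.48 to 3.57 FPKM in Th17 cells and at 32.9 to 44.7 FPKM in Th17-derived Th1 cells, while Tnfrsf14 and Tnfrsf25 overlap between groups.

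Of the 5 receptors with a death domain, 3 were higher in both kinds of Th1 cell than in Th17 cells, where 6.43% of all tested genes were higher in Th17-derived Th1 and 14.0% in Th1 cells, and none differed past the threshold between the 2 kinds of Th1 cell. Fas, the receptor of Fas ligand in activation-induced death, was 10.4, 10.5 and 8.57 FPKM in Th17 cells, 29.5, 27.8 and 34.4 FPKM in Th17-derived Th1 cells and 25.8, 15.3 and 26.6 FPKM in Th1 cells. Each Th17-derived Th1 library exceeded each Th1 library, and each Th1 library exceeded each Th17 library. Fas was 2.92-fold higher in Th17-derived Th1 than in Th17 cells (adjusted p = 0.00132) and 2.13-fold higher in Th1 than in Th17 cells (adjusted p = 0.0027). The difference of 0.46 between the 2 kinds of Th1 cell had an adjusted p of 0.176.

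Tnfrsf10b encodes the mouse TRAIL receptor that carries a death domain. It was 3.61, 3.19 and 3.82 FPKM in Th17 cells, 8.52, 7.48 and 8.87 FPKM in Th17-derived Th1 cells and 10.4, 11.2 and 11.2 FPKM in Th1 cells. The 3 groups did not overlap, with Th17 cells lowest and Th1 cells highest. The rise over Th17 cells was 2.05-fold (adjusted p = 0.000347) and 2.63-fold (adjusted p = 3.48e-05). The step between Th17-derived Th1 and Th1 cells, -0.36 on the log2 scale, had an adjusted p of 0.0504 and passed under median-ratio scaling (0.0391).

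Tnfrsf1a, which encodes the TNF receptor TNFR1, differed less. It was 17.2 ± 1.25 FPKM in Th17 cells, 24.7 ± 2.10 FPKM in Th17-derived Th1 cells and 27.0 ± 1.50 FPKM in Th1 cells (mean ± SD, n = 3 each). The log2 differences from Th17 cells were 0.49 (adjusted p = 0.00933) and 0.62 (adjusted p = 0.00135). The first was lost without Th17 replicate 2 (adjusted p = 0.0502). Tnfrsf21, which encodes DR6, was low throughout, at 2.69 to 4.78 FPKM in Th17 cells, 1.08 to 1.60 FPKM in Th17-derived Th1 cells and 0.425, 2.74 and 0.746 FPKM in Th1 cells. Its log2 difference of -1.14 in Th1 against Th17 cells had an adjusted p of 0.0209 although the groups overlapped at Th1 replicate 2. It no longer passed without Th1 replicate 1 or 3 (0.069 and 0.0741), without Th17 replicate 2 or 3 (0.061 and 0.0684) and without replicate 3 of every group (0.186).

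Of the 12 ligands tested, Th1 cells had 8 higher and none lower than Th17 cells had, where 14.0% and 28.9% of all tested genes were. In Th17-derived Th1 against Th17 cells 4 were higher and none lower, where 6.43% and 9.49% were. Between the 2 kinds of Th1 cell, 4 ligands were lower and 1 was higher in the Th17-derived cells, where 4.81% and 5.67% of all tested genes were.

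OX40 ligand, encoded by Tnfsf4, is best known on antigen-presenting cells and is also made by activated T cells. Tnfsf4 was 1.92, 2.40 and 2.12 FPKM in Th17 cells, 12.5, 12.8 and 21.3 FPKM in Th17-derived Th1 cells and 47.2, 37.0 and 50.1 FPKM in Th1 cells. The 3 groups formed separate steps. The level was 5.12-fold higher in Th17-derived Th1 than in Th17 cells (adjusted p = 0.000195), 14.5-fold higher in Th1 than in Th17 cells (adjusted p = 7.03e-06), and 2.82-fold lower in Th17-derived Th1 than in Th1 cells (log2 difference -1.50, adjusted p = 0.00313). Its receptor gene Tnfrsf4 did not follow that order, with 56.7 ± 24.2 FPKM in Th17-derived Th1 and 39.0 ± 12.5 FPKM in Th1 cells (mean ± SD, n = 3 each) and no called difference between them. The 7 dendritic cell markers summed to 29.6 to 42.5 FPKM in Th1, 131 to 150 FPKM in Th17-derived Th1 and 104 to 163 FPKM in Th17 cells, and most of each sum was Ccr7, which T cells also express, at 20.6 to 161 FPKM. Flt3 and Siglech were listed at 0 in all 9 libraries. Xcr1 was 0.648 to 1.57 FPKM in Th17, 1.06 to 2.64 FPKM in Th17-derived Th1 and 2.81 to 3.79 FPKM in Th1 cells. Zbtb46 was 0.384 to 0.524, 0.735 to 1.51 and 0.579 to 2.32 FPKM in the same order, with overlap. Itgax was 0.916 to 1.96, 0.0829 to 0.579 and 0.769 to 2.92 FPKM, which was not the order of Tnfsf4. Clec9a stayed at or under 0.0184 FPKM. The part of dendritic cells in the Tnfsf4 level was not tested.

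Fasl, Tnfsf10 and Tnf, the genes of 3 ligands that can kill target cells, were called higher in Th1 cells than in both other groups. Fasl was 9.86, 12.0 and 25.1 FPKM in Th17 cells, 8.59, 9.53 and 21.9 FPKM in Th17-derived Th1 cells and 38.9, 43.1 and 52.4 FPKM in Th1 cells. All Th1 libraries were above all others, the other groups overlapped, and replicate 3 was highest in each group. Th17-derived Th1 cells were 3.44-fold lower than Th1 cells (log2 difference -1.78, adjusted p = 0.0210) and Th1 cells were 2.95-fold higher than Th17 cells (adjusted p = 0.0110). The first call did not survive the omission of Th1 replicate 3 (adjusted p = 0.0838) and without Th17-derived Th1 replicate 1 or 2 (0.0865 and 0.0921). Without replicate 3 of every group both calls held.

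Tnfsf10, which encodes TRAIL, was 18.6, 15.1 and 21.8 FPKM in Th17 cells, 10.6, 12.7 and 19.9 FPKM in Th17-derived Th1 cells and 34.8, 30.1 and 38.2 FPKM in Th1 cells. As with Fasl, the Th1 libraries were highest and the other groups overlapped. The log2 difference was -1.24 in Th17-derived Th1 against Th1 cells (adjusted p = 0.00931, and 0.0501 without Th17-derived Th1 replicate 2) and 0.87 in Th1 against Th17 cells (adjusted p = 0.0114). Thus the receptor gene Tnfrsf10b was higher in both kinds of Th1 cell than in Th17 cells, while its ligand gene was called higher than in Th17 cells in Th1 cells and had a log2 difference of -0.37 (adjusted p = 0.257) in Th17-derived Th1 cells.

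Tnf was 35.4, 36.8 and 55.2 FPKM in Th17 cells, 46.6, 42.5 and 55.1 FPKM in Th17-derived Th1 cells and 70.1, 90.4 and 86.0 FPKM in Th1 cells. The Th1 libraries were highest, and the other groups overlapped. Th17-derived Th1 cells were 1.69-fold lower than Th1 cells (log2 difference -0.76, adjusted p = 0.0308), which failed when Th1 replicate 3 was omitted (adjusted p = 0.108) and without Th17-derived Th1 replicate 1 or 2 (0.105 and 0.128), and with no filter it was 0.0534. Th1 cells were 1.94-fold higher than Th17 cells (adjusted p = 0.00339).

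Tnf lies between Ltb and Lta on chromosome 17, 3.06 kb from the first and 1.157 kb from the second, and the 3 neighbours did not share 1 pattern. Ltb encodes lymphotoxin beta, which joins lymphotoxin alpha on the cell surface. It was 296, 293 and 271 FPKM in Th17 cells, 450.3, 451 and 510.3 FPKM in Th17-derived Th1 cells and 654, 341 and 634 FPKM in Th1 cells. All Th17 libraries were lowest. Ltb was 1.82-fold higher in Th1 than in Th17 cells (adjusted p = 0.0121, and 0.118 without replicate 3 of every group). In Th17-derived Th1 against Th17 cells the log2 difference of 0.71 had an adjusted p of 0.0543, which was 0.0495 without Th1 replicate 1 and 0.000578 without Th1 replicate 2. Without Th1 replicate 2, Ltb was also lower in Th17-derived Th1 than in Th1 cells (adjusted p = 0.0126).

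Lta was 172, 165 and 216 FPKM in Th17 cells, 258, 237 and 69.7 FPKM in Th17-derived Th1 cells and 97.0, 707 and 100.4 FPKM in Th1 cells. The groups overlapped and Lta was not called in any comparison, with a 95% interval from -1.86 to 1.52 for Th17-derived Th1 against Th17 cells. Ltbr, the gene of the lymphotoxin beta receptor, which is found mainly on stromal and myeloid cells, stayed at or under 0.152 FPKM.

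CD40 ligand, encoded by Cd40lg, is the main helper signal from CD4 T cells to B cells and dendritic cells. Cd40lg was 14.1, 13.1 and 7.51 FPKM in Th17 cells, 18.2, 14.1 and 11.3 FPKM in Th17-derived Th1 cells and 42.5, 48.6 and 19.0 FPKM in Th1 cells. Every Th1 library was above every other library, and replicate 3 was lowest in each group. Th1 cells were 2.88-fold higher than Th17 cells (adjusted p = 0.00826). Th17-derived Th1 cells were 1.20 lower than Th1 cells on the log2 scale (log2 difference -1.20) with an adjusted p of 0.0614, which was 0.0209 without Th1 replicate 3, 0.00732 without replicate 3 of every group and 0.0465 under median-ratio scaling.

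Tnfsf14 and Tnfsf9, which encode LIGHT and 4-1BB ligand, lie on either side of Cd70 on chromosome 17 and were higher in both kinds of Th1 cell. Tnfsf14 was 2.37, 1.97 and 4.88 FPKM in Th17 cells, 15.0, 13.4 and 17.8 FPKM in Th17-derived Th1 cells and 11.9, 13.5 and 11.0 FPKM in Th1 cells. Its rise over Th17 cells was 4.19-fold (adjusted p = 0.000779) and 3.36-fold (adjusted p = 0.000664). Tnfsf9 was much lower in level, at 1.75 ± 0.193 FPKM in Th17 cells, 4.50 ± 0.592 FPKM in Th17-derived Th1 cells and 4.70 ± 0.361 FPKM in Th1 cells (mean ± SD, n = 3 each). Its log2 differences from Th17 cells were 1.00 (adjusted p = 0.000945) and 1.05 (adjusted p = 0.000314). For both ligands the Th17 libraries did not overlap the rest, and the 2 kinds of Th1 cell did not differ past the threshold.

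Tnfsf11, which encodes RANK ligand, was 12.1, 10.8 and 20.9 FPKM in Th17 cells, 15.8, 15.1 and 4.76 FPKM in Th17-derived Th1 cells and 3.39, 15.1 and 3.06 FPKM in Th1 cells. The groups overlapped and no difference was called. Th1 against Th17 cells gave a log2 difference of -1.19 (adjusted p = 0.123), which had an adjusted p of 0.00921 without Th1 replicate 2. Tnfsf13b, the gene of BAFF, stayed between 0.556 and 1.49 FPKM and was not called.

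**Figure D3:**
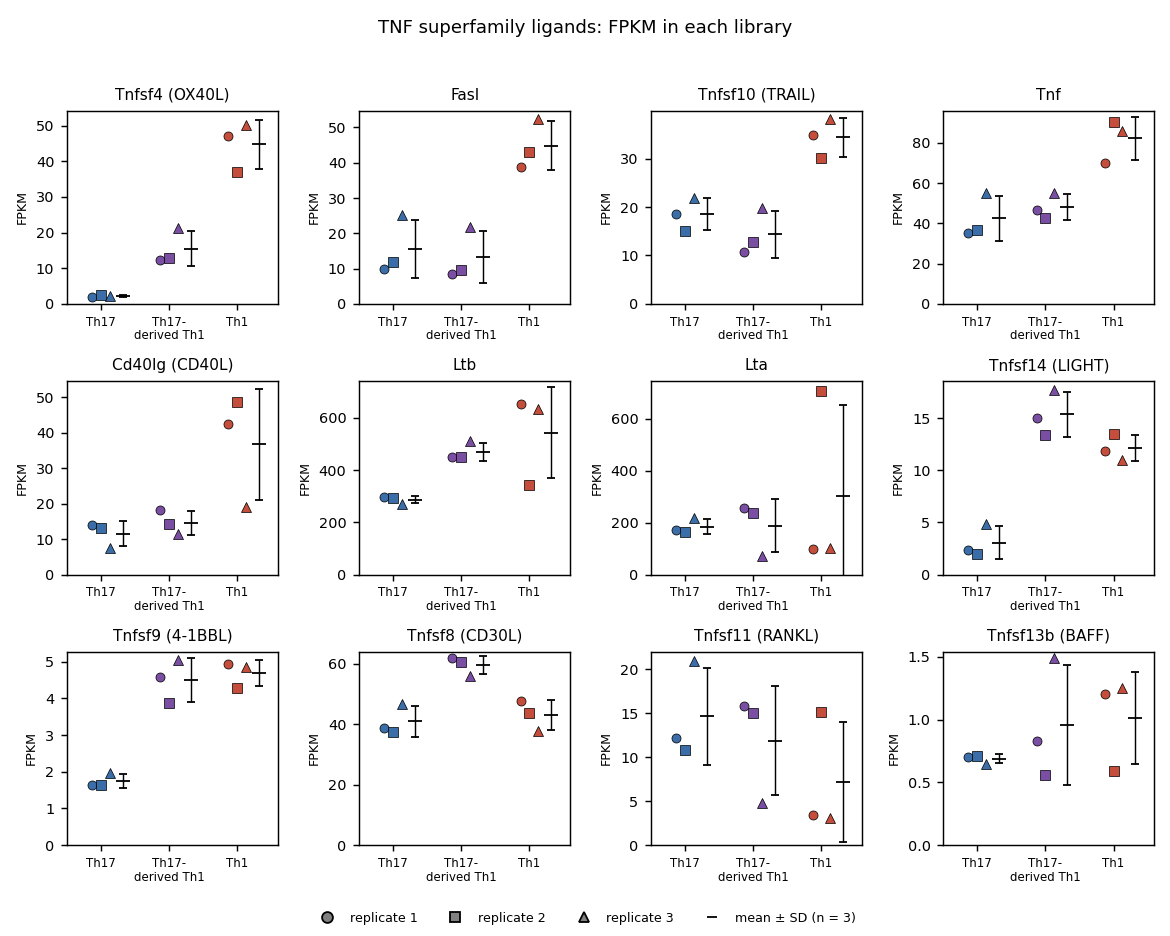
FPKM of the 12 tested ligand genes in each of the 9 libraries, by group, with marker shapes for replicates 1 to 3 and bars for the mean and SD (n = 3). Tnfsf4 rises in 3 separate steps from 1.92 to 50.1 FPKM, and Lta and Tnfsf11 show 1 Th1 library, replicate 2, far above the other 2.

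LIGHT binds HVEM, and HVEM also binds BTLA and CD160, which lie outside the superfamily. Btla, the gene of an inhibitory receptor, was 25.6, 23.2 and 15.8 FPKM in Th17 cells, 45.3, 39.2 and 39.6 FPKM in Th17-derived Th1 cells and 22.5, 17.5 and 15.2 FPKM in Th1 cells. Cd160 was 32.9, 28.8 and 47.7 FPKM in Th17 cells, 10.5, 11.2 and 22.0 FPKM in Th17-derived Th1 cells and 41.0, 27.6 and 52.6 FPKM in Th1 cells. So Th17-derived Th1 cells had the highest Btla and the lowest Cd160 of the 3 groups, without overlap. Btla differed by 0.93 from Th17 cells (adjusted p = 0.0113, and 0.0504 without Th17-derived Th1 replicate 1) and by 1.14 from Th1 cells (adjusted p = 0.00746). Cd160 differed by -1.31 (adjusted p = 0.0247) and -1.44 (adjusted p = 0.0230). Both Cd160 calls were lost when replicate 1 (adjusted p = 0.0892 and 0.0937) or 2 (0.08 and 0.1) of the Th17-derived Th1 cells was left out. The first was also lost without Th17 replicate 1, 2 or 3 (0.0737, 0.0523 and 0.0657), and the second without Th1 replicate 1 or 3 (0.0671 and 0.0909). Cd160 is also a gene of CD8 T cells and was highest in replicate 3 of each group, and the part of CD8 cells in it was not tested.

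Of the 5 receptors best known on B cells and antigen-presenting cells, 4 were tested. In Th1 against Th17 cells 3 of the 4 were lower, where 28.9% of all tested genes were, and none higher. Tnfrsf13c passed the filter only through the Th17 libraries and Cd40 through them and 1 Th17-derived Th1 library, so the count is no support for a direction. Tnfrsf13b, which encodes TACI, was the most abundant, at 22.9, 25.9 and 21.2 FPKM in Th17 cells, 19.4, 17.9 and 12.4 FPKM in Th17-derived Th1 cells and 14.1, 17.4 and 11.3 FPKM in Th1 cells. Its Th17 libraries were above all others, and the log2 difference of -0.69 in Th1 against Th17 cells (adjusted p = 0.0178) failed when Th1 replicate 3 was omitted (adjusted p = 0.0668) and without Th17 replicate 1 or 2 (0.0512 and 0.0678).

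Tnfrsf13c, the gene of the BAFF receptor, was 6.91, 6.23 and 2.09 FPKM in Th17 cells, 0.520, 0.644 and 0.858 FPKM in Th17-derived Th1 cells and 0.340, 0.236 and 0.315 FPKM in Th1 cells. It passed the filter only through the Th17 libraries. The log2 differences from Th17 cells were -1.75 in Th17-derived Th1 cells (adjusted p = 0.00606) and -2.11 in Th1 cells (adjusted p = 0.00104). Cd40 was 4.60, 5.95 and 1.27 FPKM in Th17 cells, 0.917, 1.71 and 0.762 FPKM in Th17-derived Th1 cells and at most 0.144 FPKM in Th1 cells. Replicate 3 was the lowest Th17 library for both genes. In Th1 cells Cd40 was below its Th17 level (log2 difference -2.09, adjusted p = 0.00247), and its difference of -1.09 in Th17-derived Th1 against Th17 cells had an adjusted p of 0.0752, or 0.00263 without Th17 replicate 3. Without that library the difference of 1.00 between Th17-derived Th1 and Th1 cells (adjusted p = 0.120) passed as well (0.0146).

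B cell markers were low but not equal between the groups. The 8 B cell markers summed to 4.49 to 5.62 FPKM in Th17 cells, 1.86 to 3.42 FPKM in Th17-derived Th1 cells and 1.09 to 2.53 FPKM in Th1 cells, and 5 of the 8 stayed under 1 FPKM in every library. Ms4a1 reached at most 0.0652 FPKM and Pax5 0.0213 FPKM, and Pax5 was listed at 0 in all Th17 libraries. Most of the sum in Th17 cells came from Cd79b, at 1.91 to 3.03 FPKM, and Blk, at 1.13 to 1.53 FPKM. The part of B cells in the levels of Tnfrsf13b, Tnfrsf13c and Cd40 was not tested.

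**Figure D4:**
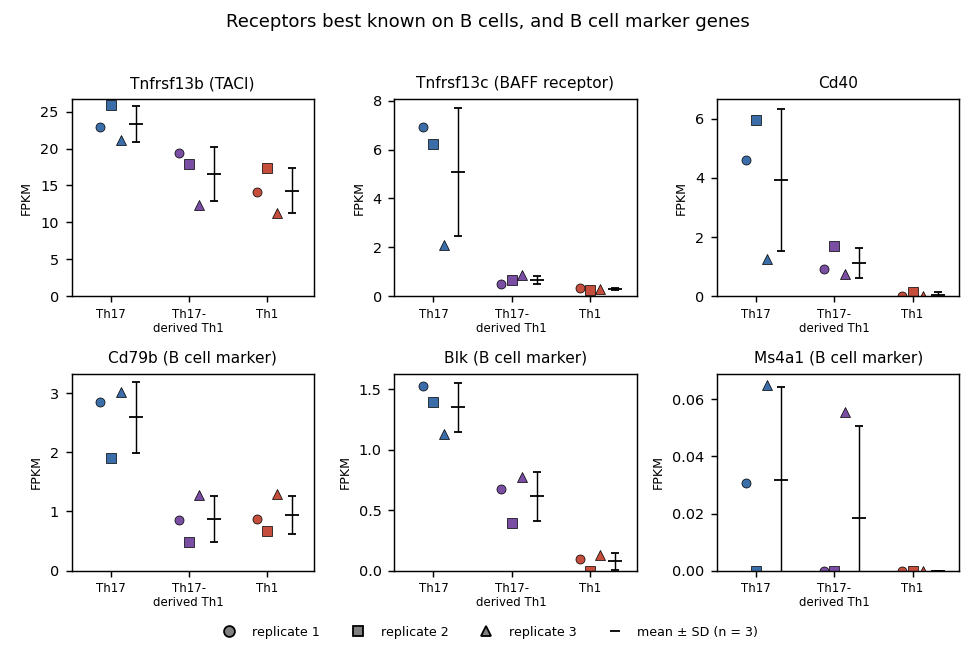
FPKM of Tnfrsf13b, Tnfrsf13c and Cd40 (top) and of the B cell markers Cd79b, Blk and Ms4a1 (bottom) in each library, with bars for the mean and SD (n = 3). The receptors reach 25.9, 6.91 and 5.95 FPKM in Th17 cells, while Ms4a1 stays at or under 0.0652 FPKM in all 9 libraries; each panel has its own scale.

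Tnfrsf11a, the gene of RANK, the receptor of the Tnfsf11 product, ranged from 0.618 to 2.89 FPKM and was 0.71 lower in Th17-derived Th1 than in Th1 cells (log2 difference -0.71, adjusted p = 0.0470). The Th17-derived Th1 and Th1 libraries were at 0.809, 0.810 and 0.618 FPKM against 1.31, 2.89 and 1.59 FPKM, with no overlap. It did not pass when Th1 replicate 2 or 3 was omitted (adjusted p = 0.0512 and 0.0995), nor when Th17-derived Th1 replicate 1, 2 or 3 (0.125, 0.133 and 0.0911), Th17 replicate 1, 2 or 3 (0.072, 0.0719 and 0.0613) or replicate 3 of every group (0.181) was. It also failed with a pseudocount of 5 (0.068), no filter (0.0657) and only the 2 groups compared (0.0998).

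The decoy receptor genes Tnfrsf22 and Tnfrsf23 lie 16.147 kb apart on chromosome 7, and Tnfrsf26 lies beside them. Tnfrsf22 and Tnfrsf23 share 719 of their 50-base transcript words, 17.3% and 18% of each, so the split of reads between them is uncertain. Tnfrsf23 was 1.24, 1.14 and 1.08 FPKM in Th17 cells, 5.41, 5.39 and 9.57 FPKM in Th17-derived Th1 cells and 8.72, 2.81 and 8.58 FPKM in Th1 cells. The Th17 libraries were lowest without overlap, and the rises were 3.51-fold (adjusted p = 0.00905, and 0.0675 without replicate 3 of every group) and 3.28-fold (adjusted p = 0.00475). Tnfrsf22 ranged from 1.33 to 3.90 FPKM and was 1.58-fold higher in Th17-derived Th1 than in Th1 cells (adjusted p = 0.0298). Omitting Th1 replicate 1 or 3 ended the call (adjusted p = 0.0791 and 0.0638), as did omitting Th17-derived Th1 replicate 1 or 3 (0.0876 and 0.0531) or replicate 3 of every group (0.0916) and comparing only the 2 groups (0.0707). Tnfrsf26 ranged from 8.78 to 32.5 FPKM and was not called.

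Of the receptors listed as known from epithelium and other tissues, Tnfrsf26 was at 8.78 to 32.5 FPKM, and Tnfrsf12a, Ltbr and Tnfrsf19 were low. Tnfrsf12a, the gene of the TWEAK receptor, was 1.24 to 1.37 FPKM in Th17 cells and 0.390 to 0.861 FPKM elsewhere, and like Tnfrsf13c it passed the filter only through the Th17 libraries. Its log2 differences from Th17 cells were -0.52 in Th17-derived Th1 cells (adjusted p = 0.0454) and -0.61 in Th1 cells (adjusted p = 0.0105). The first was lost without Th1 replicate 1 (0.0573), without Th17-derived Th1 replicate 1 or 2 (0.148 and 0.116), with a pseudocount of 0.1 (0.0658) and under median-ratio scaling (0.0944). The 10 members that were not tested included Tnfrsf17, the gene of the plasma cell receptor BCMA, which was listed at 0 in all 9 libraries, and Tnfrsf11b, the gene of the secreted decoy osteoprotegerin, which reached 1.96 FPKM in 1 library. Tnfrsf19, Tnfsf12, Tnfsf13, Tnfsf15, Tnfsf18 and Tnfsfm13 stayed at or under 0.166 FPKM, and Tnfsf18, the gene of GITR ligand, reached at most 0.029 FPKM. Tnfsfm13 shares 46.8% of the 50-base transcript words of Tnfsf12 and 57.3% of those of Tnfsf13, so the split of reads with each is uncertain.

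Among genes that act downstream of the receptors, shares of all tested genes called are again 6.43% higher and 9.49% lower in Th17-derived Th1 against Th17 cells, 5.67% and 4.81% in Th17-derived Th1 against Th1 cells, and 14.0% and 28.9% in Th1 against Th17 cells. Of 13 TRAF adaptors and partners tested, 2 were higher and 1 lower in the first comparison, 1 was higher and none lower in the second, and 1 was higher and 3 lower in the third. Traf1, an adaptor that binds several costimulatory receptors and is itself an NF-kappaB target, was 41.0 ± 2.78 FPKM in Th17 cells, 101 ± 26.3 FPKM in Th17-derived Th1 cells and 105 ± 26.7 FPKM in Th1 cells (mean ± SD, n = 3 each). It differed from Th17 cells by 1.25 (adjusted p = 0.00583) and 1.30 (adjusted p = 0.00201) on the log2 scale. In Th1 cells Traf4 and Traf6 were below Th17 cells, by log2 differences of -1.18 (adjusted p = 0.000512) and -0.65 (adjusted p = 0.00402).

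Of 18 genes of the IKK, NIK and NF-kappaB list, 4 were higher and none lower in Th17-derived Th1 than in Th17 cells, 1 was higher and none lower than in Th1 cells, and Th1 cells compared with Th17 cells had 5 higher and 3 lower. Map3k8, which encodes the kinase TPL2, was 18.0 ± 4.36 FPKM in Th17 cells, 60.9 ± 5.53 FPKM in Th17-derived Th1 cells and 67.3 ± 5.04 FPKM in Th1 cells (mean ± SD, n = 3 each), with log2 differences of 1.73 (adjusted p = 0.000265) and 1.87 (adjusted p = 8.06e-05). Nfkb2, which encodes the p100 precursor of the noncanonical pathway, was 30.8 ± 4.72 FPKM, 72.1 ± 9.24 FPKM and 79.2 ± 27.6 FPKM in the same order. Its log2 difference in Th17-derived Th1 against Th17 cells was 1.20 (adjusted p = 0.0122, but 0.0585 and 0.0602 without Th17 replicate 1 or 2 and 0.0648 without replicate 3 of every group). Bcl3, which encodes a nuclear IkappaB protein, rose by 1.09 in the same comparison (adjusted p = 0.00238). Ikbkb, the gene of the kinase IKK-beta, fell below the Th17 level in Th1 cells (log2 difference -0.86, adjusted p = 0.000964).

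Of 9 genes for linear ubiquitin chains and their removal, 1 was higher in Th17-derived Th1 than in Th17 cells, Tnip2, with a log2 difference of 0.62 (adjusted p = 0.00335), and 2, Tnip2 and Rnf31, were higher than in Th1 cells. Th1 against Th17 cells had 4 higher, Tnfaip3, Tnip1, Otulin and Cyld, and 1 lower, Rnf31. Of the 20 alternatives, the Tnfaip3 call (adjusted p = 0.0388) was lost in 8, Tnip1 (0.0484) in 12 and Rnf31 (0.0354) in 11. The Otulin call (0.00829) was kept in all 20. Against Th1 cells, the calls of Tnip2 (0.0385) and Rnf31 (0.0442) in Th17-derived Th1 cells were lost in 12 and 14 of the 20. Of 4 tested genes for shedding of ligands and receptors, 1 was higher in Th17-derived Th1 than in Th17 cells, 1 was lower than in Th1 cells, and 3 were higher in Th1 than in Th17 cells. The largest difference was in Timp3, whose product inhibits the TNF sheddase ADAM17, at 2.85, 1.67 and 3.89 FPKM in Th1, 0.170, 0.154 and 0.357 FPKM in Th17-derived Th1 and 0, 0.0551 and 0.0420 FPKM in Th17 cells. Timp3 passed the filter only through the Th1 libraries, so the counts of this list that include it are no support for a direction. Its log2 differences were 1.84 in Th1 against Th17 cells (adjusted p = 0.000314) and -1.59 in Th17-derived Th1 against Th1 cells (adjusted p = 0.00288). The others called higher in Th1 than in Th17 cells were Adam17 itself (adjusted p = 0.0579 without replicate 3 of every group) and Rhbdf2. Rhbdf2, a cofactor of the same protease, had a log2 difference of 1.09 (adjusted p = 0.00171). The calls printed for Traf1, Traf4, Traf6, Map3k8, Bcl3, Ikbkb and Rhbdf2, and for Tnip2 against Th17 cells, were kept in every alternative. These genes were picked from the calls of their lists for that reason, after their values were seen.

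Replicate 3 of each group had the most Cd8a and Cd8b1. Of the 32 tested members, 9 were above the mean of replicates 1 and 2 in replicate 3 of every group, 4 were below and 19 were mixed, where 13.4% of all tested genes were above in every group and 16.7% below. The 4 below were Tnfrsf4, Cd40lg, Tnfrsf13b and Cd40. Fasl was above by 1.13 in Th17, 1.19 in Th17-derived Th1 and 0.35 in Th1 cells on the log2 scale, and Tnfrsf9 by 1.18, 0.50 and 0.22. Cd40lg was lower in replicate 3, with differences of -0.78, -0.47 and -1.21. The summed Cd8a and Cd8b1 level was 152 to 203 FPKM in these 3 libraries and 19.8 to 79.0 FPKM in the other 6, and Cd4 was 52.9, 96.9 and 57.1 FPKM in replicate 3 of Th17, Th17-derived Th1 and Th1 cells. Without these libraries, 12 members were higher and 1 was lower in Th17-derived Th1 than in Th17 cells, of 29 tested, where 5.01% and 5.09% of 10262 genes were called.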

How the data were processed

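RNA-seq libraries of cultured mouse T cells were compared, 3 in each of 3 groups. FPKM values per gene were deposited by the authors; the submitters' processing notes name HISAT2, DESeq2 and mm10, without versions or roles, and none of the labels names the gene annotation or a counting tool. Whole reads could not be recovered from the low values of these normalized levels, so depth is unknown and precision rests on the 3 libraries of a group. Each group mean is given with its SD.

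Values of the genes that reached 1 FPKM in 3 libraries or more were fitted as log2(FPKM + 1) with limma 3.58.1 (R 4.3.3), with a mean-variance trend, on all 9 libraries together (6 residual degrees of freedom before moderation), and p-values were adjusted by the Benjamini-Hochberg method over all 10538 genes of each comparison. The threshold was an adjusted p of 0.05. The pseudocount of 1 understates the change of low genes. The script was tested on simulated data.

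The members and gene lists were chosen with earlier results of these data known. Values in every library were to be printed for members called in at least 1 comparison and for a set of key members. From each list of other genes, up to 3 called genes per direction and comparison could be named. Alternatives were pseudocounts of 0.1 and 5, no filter, a filter at 5 FPKM, equal sums, median-ratio scaling, quantile normalization, a replicate block, robust moderation, only the 2 groups compared and leaving out each library. Leaving out replicate 3 of each group was chosen after seeing the data. Promoters and gene positions came from RefSeq and GENCODE annotation on GRCm38. Python 3.11.15, pandas 2.3.3 and matplotlib 3.10.9 were used. No protein sequence was used here. Some results for genes outside the superfamily are not reported here.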

Additional observations from a re-analysis of the deposited data

How the results depend on the processing

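Over 20 alternatives, no called member difference changed sign. Of 46 called member differences, 28 kept the call in every alternative that tested them and 18 lost it in at least 1. The 46 include those of Tnfrsf13c, Tnfrsf12a and Cd40, which passed the filter only or mainly through the Th17 libraries. Of 50 that were not called, 12 passed in at least 1 alternative and 21 changed sign in at least 1. The count of members higher in Th17-derived Th1 than in Th17 cells stayed between 9 and 15, and that of members higher in Th1 than in Th17 cells between 16 and 17. The smaller counts moved more, and the cause was not tested.

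Members lower in Th17-derived Th1 than in Th17 cells (2) numbered 1 with a pseudocount of 0.1, 0 with at least 5 FPKM (24 members tested), 1 with median-ratio scaling, 4 with only the 2 groups compared, 1 without replicate 3 of each group and 0 to 4 when 1 library was left out. Members higher in Th17-derived Th1 than in Th1 cells (3) numbered 1 without a filter, 0 with only the 2 groups compared, 1 without replicate 3 of each group, 2 with a replicate block and 0 to 4 when 1 library was left out. Members lower in that comparison (5) numbered 3 without a filter and 1 to 5 when 1 library was left out. Members lower in Th1 than in Th17 cells (6) numbered 2 with at least 5 FPKM, 3 without replicate 3 of each group and 1 to 7 when 1 library was left out.

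With the replicate number as a block, members lower in Th17-derived Th1 than in Th17 cells numbered 4 and the other counts were 13, 2, 6, 17 and 6. The 2 higher in Th17-derived Th1 than in Th1 cells were Tnfrsf22 and Tnfrsf4 (adjusted p = 0.0381), while the calls of Tnfrsf8 (0.0578) and Tnfsf8 (0.061) were lost with the block. Same-numbered libraries deviated together in some pairs of groups and not in others (correlations from -0.178 to 0.659). Deviations from a mean of 3 libraries sum to 0, so this check cannot settle whether the numbers pair the libraries. Replicate 3 of every group had the most Cd8a and Cd8b1.

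Sign changes arose only in differences that were not called. Without replicate 3 of each group, Th17-derived Th1 against Th17 cells gave 0.55 for Lta, -0.25 for Tnfrsf14, -0.14 for Tnfrsf25 and 0.40 for Tnfsf11, and Th17-derived Th1 against Th1 cells gave 0.076 for Tnfrsf18 and 0.088 for Tnfrsf1b. Equal sums gave 0.033 for Tnfrsf18 and 0.029 for Tnfrsf1b in the second comparison, and quantile normalization gave 0.0067 for Tnfrsf1b and -0.061 for Tnfrsf12a. In Th1 against Th17 cells quantile normalization gave -0.11 for Lta and median-ratio scaling 0.0090 for Tnfrsf14, and without replicate 3 of each group the value was -0.15 for Tnfrsf26.

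In Th17-derived Th1 against Th17 cells, leaving out 1 library at a time moved Fasl from -0.62 to 0.15, Lta from -0.50 to 0.43, Tnfrsf14 from -0.11 to 0.28, Tnfrsf25 from -0.074 to 0.41 and Tnfsf11 from -0.65 to 0.13. In Th17-derived Th1 against Th1 cells, leaving out 1 library at a time moved Lta from -0.71 to 0.71, Ltb from -0.45 to 0.014, Tnfrsf12a from -0.0094 to 0.20, Tnfrsf14 from -0.014 to 0.48, Tnfrsf18 from -0.14 to 0.14, Tnfrsf1b from -0.13 to 0.076, Tnfrsf21 from -0.11 to 0.59, Tnfrsf23 from -0.35 to 0.33, Tnfsf13b from -0.21 to 0.10 and Tnfsf9 from -0.12 to 0.032. In Th1 against Th17 cells, leaving out 1 library at a time moved Cd160 from -0.081 to 0.37, Lta from -0.88 to 0.54, Tnfrsf11a from -0.076 to 0.30, Tnfrsf14 from -0.37 to 0.12, Tnfrsf25 from -0.71 to 0.11, Tnfrsf26 from -0.030 to 0.50 and Tnfsf8 from -0.0019 to 0.17.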

Other observations

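Lta and Tnfsf11, which encode lymphotoxin alpha and RANK ligand and lie on different chromosomes, were high and low in the same libraries within each group, a pattern noticed after the values were seen. Th1 replicate 2 held the most of both, with 707 FPKM of Lta and 15.1 FPKM of Tnfsf11, against 97.0 and 100.4 FPKM of Lta and 3.39 and 3.06 FPKM of Tnfsf11 in the other Th1 libraries. Th17-derived Th1 replicate 3 held the least of both, at 69.7 and 4.76 FPKM. Th17 replicate 3 held the most of both among Th17 libraries, at 216 and 20.9 FPKM. Ifng followed the same direction in Th1 replicate 2, at 2013 FPKM against 1005 and 1137 FPKM in the other Th1 libraries, and in Th17-derived Th1 replicate 3, at 717 FPKM against 975 and 990 FPKM. Within their groups, Tnfrsf8 and Tnfrsf21 were also highest in Th1 replicate 2, at 26.0 and 2.74 FPKM. They were lowest in Th17-derived Th1 replicate 3, at 32.9 and 1.08 FPKM, and highest in Th17 replicate 3, at 3.57 and 4.78 FPKM. No test was made of this pattern.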
